A study of Homo sapiens with 6 samples.

Results

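CFTR and CTTNBP2 are adjacent genes in chromosome band 7q31, and their transcripts were among the lowest on the arrays labelled shTCF1 relative to control. The question asked here was whether the genes around them differed from control in the same way. The neighbourhood was taken as the 10 RefSeq protein-coding genes from CAV1 to ANKRD7, in chromosome order CAV1, MET, CAPZA2, ST7, WNT2, ASZ1, CFTR, CTTNBP2, LSM8 and ANKRD7. Their probes were found by the RefSeq accession of each probe, which gave 13 of the 57105 probes kept, with at least 1 probe for each of the 10 genes. CFTR and CTTNBP2 chose the neighbourhood through the contrast of shTCF1 with control. Their difference between the arrays labelled shGATA3 and shTCF1 had also been seen by then. Their values in the contrasts that hold the shTCF1 arrays are therefore given as a description without a test. The other genes were chosen by position.

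Expression was measured in RPMI8402, a cell line grown from human T-cell acute lymphoblastic leukaemia, on a 1-colour custom Agilent array. All cells had been transduced, and the study's methods describe a sort of transduced cells at 48 h. The vectors described for the control and GATA3 groups are lentiviral and carry enhanced green fluorescent protein (EGFP) as the marker. The 3 groups received a control short hairpin RNA (shRNA) vector, an shRNA against GATA3 (shGATA3) or an shRNA against TCF7, the gene of the factor TCF1 (shTCF1), with 2 arrays in each group. The study's methods list 1 vector each for the control and GATA3 hairpins, and the TCF7 vector is not given in the sources used here. The model is a leukaemia culture shortly after transduction and not normal thymocytes.

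CFTR encodes the cyclic AMP-regulated chloride and bicarbonate channel of secretory epithelia, the gene mutated in cystic fibrosis. It is best known in airway, pancreas and gut. CTTNBP2 encodes cortactin-binding protein 2, a scaffold that binds cortactin at actin structures of neuronal spines and belongs to the family of proteins found in striatin complexes (STRIPAK). The neighbours have unrelated functions. CAV1 is the coat protein of caveolae, MET the receptor of hepatocyte growth factor, CAPZA2 a subunit of the protein that caps actin filaments, WNT2 a secreted ligand, ASZ1 a germ cell protein and LSM8 a subunit of the nuclear ring of LSM proteins that holds U6 small nuclear RNA. CFTR and CTTNBP2 are transcribed from opposite strands towards each other, so their promoters lie at the outer ends of the pair.

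The promoters of the pair follow, with that of LSM8, the nearest tested gene on the far side of CTTNBP2. Each is the 250 bases before the annotated start, read 5′ to 3′ on the gene's own strand, from RefSeq on GRCh38.p14. Capitals mark the letters TGACATCA, a variant of the cyclic AMP response element TGACGTCA, and the windows of CTTNBP2 and LSM8 hold none of the motifs searched.
CFTR, chr7:117479775-117480024, plus strand: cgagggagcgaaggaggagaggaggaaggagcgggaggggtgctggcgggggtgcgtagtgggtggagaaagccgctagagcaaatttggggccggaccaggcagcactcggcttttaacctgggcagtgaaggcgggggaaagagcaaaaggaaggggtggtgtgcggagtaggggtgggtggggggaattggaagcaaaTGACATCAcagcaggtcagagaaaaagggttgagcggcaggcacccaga
CTTNBP2, chr7:117873442-117873691, minus strand: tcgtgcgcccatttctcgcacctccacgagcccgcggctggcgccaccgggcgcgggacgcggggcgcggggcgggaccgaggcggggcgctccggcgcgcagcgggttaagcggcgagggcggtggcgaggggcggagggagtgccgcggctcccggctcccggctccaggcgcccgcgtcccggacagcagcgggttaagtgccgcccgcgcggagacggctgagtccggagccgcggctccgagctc
LSM8, chr7:118183914-118184163, plus strand: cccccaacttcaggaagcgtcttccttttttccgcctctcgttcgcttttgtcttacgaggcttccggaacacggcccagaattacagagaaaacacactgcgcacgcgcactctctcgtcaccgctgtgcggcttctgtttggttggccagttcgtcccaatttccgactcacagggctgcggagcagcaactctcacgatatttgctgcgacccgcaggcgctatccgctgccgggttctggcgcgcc
The CFTR window held 61.2% G and C with 11 CpG dinucleotides, the CTTNBP2 window 80% with 45 and the LSM8 window 58.8% with 24. The median over all RefSeq windows was 58% with 11. The printed windows of the pair thus differ in composition, and that of CTTNBP2 is much richer in CpG. The window of a second CTTNBP2 start, not printed, held 63.6% with 13, much closer to that of CFTR.

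Short motifs were searched on both strands of the 15 windows listed for the 10 genes. The TCF motif CTTTGAA, or the same letters ending in T, was present in 0 of 15, and 5.94% of all 35116 RefSeq windows hold it. The shorter core CTTTG, which lies within both forms, was in 4 of 15, all of them windows of CAV1 or ST7, against 42.1% of all windows. Overlapping windows of CAV1 hold the same CTTTG site, so it is counted more than once. A GATA motif, AGATAA or a relative that starts with T, ends with G or has both of these changes, was in 3 of 15, against 22.3%, and these were 1 window each of ST7, WNT2 and a second CTTNBP2 start. TGACATCA lay 49 bases before the CFTR start and is found in 2.37% of all windows. TGACGTCA, found in 1.65%, lay in 1 window of ST7. A match describes letters and is not a binding site.

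Some facts of the whole set bear on every value below. The share of probes well above background ran from 51.0% to 56.2% per array, and the 75th percentile of intensity was 270 and 287 on the control arrays against 165 to 179 on the others, before normalization. TCF7 was lower on the shTCF1 arrays, by -1.27 and -1.43 on its 2 probes (adjusted p 0.00101 and 0.00157 in limma). GATA3 itself gave no call on arrays labelled shGATA3, with a log2 difference from control of -0.015 (SE 0.091, adjusted p 0.933), so directions drawn from that group refer to its label. TCF7 there was 0.37 and 0.56 above control, which limma called (adjusted p 0.0408 and 0.0312), but in only 2 and 6 of 17 alternatives, and for both probes not without either control array or without shGATA3 replicate 2 (0.35 to 0.38 and 0.42 to 0.60). Of the T-cell markers 7 of 8 were well above background on all 6 arrays, and CD1A on 2. Of the epithelial markers EPCAM and CDH1 were not well above background on any array, while KRT8, KRT18 and KRT19 were on all 6. KRT8 had mean log2 levels of 9.56 in control, 9.74 in shGATA3 and 9.94 in shTCF1 and was called higher in the last. Of 4 fibroblast markers 3 were not well above background on any array. Of 2 myeloid markers with a probe 1 passed background on all 6 arrays, as did 2 of 3 B-lineage markers. The part of such cells in the results below was not tested.

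CFTR separated all 3 groups. Levels are given as normalized log2 intensity of a probe, in the order replicate 1 and replicate 2. The CFTR probe A_23_P215720 read 9.84 and 9.83 on the control arrays, 11.08 and 11.08 under shGATA3 and 7.18 and 7.37 under shTCF1. No group overlapped another, and the shTCF1 arrays were the lowest. In raw intensity the same arrays read 1174 and 1253, 1831 and 1870, and 108 and 118, so the order was the same before normalization. Every array measured the probe well above background. In sorted bulk cells fewer expressing cells and less RNA per cell cannot be told apart.

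Against control, CFTR was lower by a log2 difference of -2.57 (SE 0.098, 95% interval -2.80 to -2.33) on the shTCF1 arrays, or 5.92-fold on the normalized scale. Only 7 of 31134 tested probes, CFTR included, were as far below control. This contrast chose the gene, so the interval and the rank describe its size and test nothing. On the arrays labelled shGATA3, CFTR rose by 1.24 (SE 0.098, 95% interval 1.01 to 1.47, adjusted p 0.00144 in limma), or 2.36-fold. The control arrays took part in choosing the gene, and its direct contrast of shGATA3 with shTCF1 had been seen. This p is thus not independent of the choice. There were 78 probes, CFTR included, as far above control. The gap between the shRNA groups was 3.80 (SE 0.098), and 4 probes were as far apart in that direction.

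CTTNBP2 separated only the shTCF1 arrays. Its probe A_23_P215744 read 8.01 and 8.11 on the control arrays, 7.86 and 8.12 under shGATA3 and 5.62 and 5.95 under shTCF1. Both shTCF1 arrays lay below all the others, and the shGATA3 arrays lay on both sides of control. Raw intensity was 305 and 356 in control, 180 and 224 in shGATA3 and 25.3 and 31.8 in shTCF1. The shTCF1 values were close to the dim end of the array, but the probe was well above background on all 6. Before normalization, when the control arrays were the brighter, both shGATA3 arrays lay below control. Their overlap with control thus holds on the normalized scale.

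The difference between shTCF1 and control was -2.27 (SE 0.14, 95% interval -2.61 to -1.93), or 4.83-fold lower on the normalized scale. At low signal this scale gives a smaller difference than a log2 ratio. In rank, 10 probes were as low or lower. As for CFTR, this contrast chose the gene, so the interval and the rank test nothing. On the arrays labelled shGATA3 CTTNBP2 differed from control by -0.068 (SE 0.14, 95% interval -0.41 to 0.27, adjusted p 0.791 in limma). The interval leaves out a rise of the size that CFTR showed there. Between the shRNA groups CTTNBP2 differed by 2.20, with 33 probes as far apart. Both genes of the pair were low in shTCF1, and CFTR alone stood apart from control in shGATA3. Across the 6 arrays, which fall into 3 groups, their levels had Pearson's r of 0.935.

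**Figure D1:**
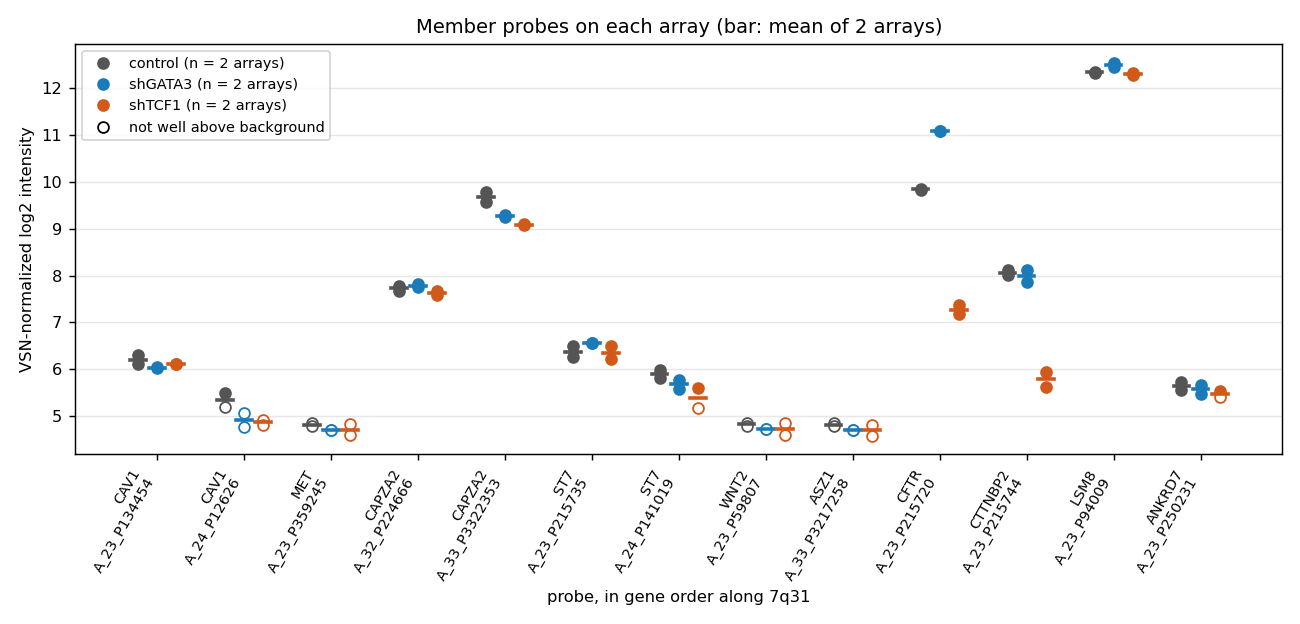
Normalized log2 intensity of the 13 probes of the 10 genes on each of the 6 arrays, in chromosome order, with a bar at the mean of the 2 arrays of a group and open circles where a spot was not well above background. CFTR falls into 3 levels and CTTNBP2 into 2, while LSM8 stays between 12.28 and 12.54 on all arrays.

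The neighbours lay much closer to control. LSM8, which follows CTTNBP2, read 12.33 and 12.34 in control, 12.44 and 12.54 in shGATA3 and 12.28 and 12.31 in shTCF1. Its difference in shTCF1 was -0.037 (SE 0.088, 95% interval -0.25 to 0.17, adjusted p 0.787 in limma), an interval that leaves out a fall as large as that of either member of the pair. In shGATA3 it was 0.15 above control (adjusted p 0.297). LSM8 was bright on every array, with raw intensities of 4207 to 7296.

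ANKRD7, an ankyrin repeat gene at the far end, read 5.72 and 5.56 in control, 5.66 and 5.48 in shGATA3 and 5.53 and 5.42 in shTCF1. It was near background and passed it on 5 of 6 arrays. The difference in shTCF1 was -0.16 (95% interval -0.43 to 0.099, adjusted p 0.321 in limma).

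On the other side of CFTR, the next tested gene was ST7, which was first described as a candidate tumour suppressor. Its probe A_23_P215735 read 6.49 and 6.27 in control, 6.56 and 6.55 in shGATA3 and 6.49 and 6.22 in shTCF1, with a shTCF1 difference of -0.020 (adjusted p 0.922 in limma). Its dimmer probe A_24_P141019 read 5.995 and 5.82, 5.77 and 5.59, and 5.17 and 5.61. Here the shTCF1 difference was -0.52 (SE 0.16, 95% interval -0.90 to -0.14) and limma did not call it (adjusted p 0.0596). The 2 probes of ST7 thus gave different sizes. Without shTCF1 replicate 2 the second probe differed by -0.74 and was called (adjusted p 0.0297, with 0.0297 to 0.541 over 16 alternatives), and the shTCF1 array that was kept was not above background for it.

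Among the other tested coding genes from CAV1 to ANKRD7, CAPZA2 alone had a call. Its probe A_33_P3322353 read 9.57 and 9.78 in control, 9.30 and 9.25 in shGATA3 and 9.09 and 9.07 in shTCF1, and all groups were apart. It fell by 0.59 (SE 0.10, 95% interval -0.83 to -0.35) on the shTCF1 arrays (adjusted p 0.0101 in limma). In shGATA3 the difference was -0.40 and was not called (adjusted p 0.0532), although limma called it in 3 of 17 alternatives. Its other probe A_32_P224666 read 7.78 and 7.67, 7.76 and 7.81, and 7.66 and 7.59, with a shTCF1 difference of -0.10 (95% interval -0.32 to 0.12, adjusted p 0.454). The call rested on 1 of the 2 probes, and without control replicate 2 the difference was -0.49 (adjusted p 0.0625, with 0.00307 to 0.569 over 17 alternatives).

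CAV1 was measured by A_23_P134454 at 6.30 and 6.11 in control, 6.03 and 6.05 in shGATA3 and 6.10 and 6.11 in shTCF1. The shTCF1 arrays overlapped the control arrays, with a difference of -0.096 (95% interval -0.33 to 0.14, adjusted p 0.515 in limma). The second CAV1 probe, A_24_P12626, passed background on 1 array, control replicate 1, and was not tested. MET, WNT2 and ASZ1, with 1 probe each, were not well above background on any array. Their normalized values ranged from 4.59 to 4.86, where levels have no order, so nothing can be read about their expression beyond that bound.

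Of the 13 probes 9 passed the filter, which asked for a signal well above background in both replicates of some group, for 7 of the 10 genes, and 7 probes passed it on all 6 arrays. CFTR and CTTNBP2 are left out of the counts in the contrasts that hold the shTCF1 arrays. Of the other 7 probes 1, that of CAPZA2, was called in shTCF1 against control, where limma called 21.6% of all 31134 tested probes and 12% as lower. Arrays of the 2 groups were fully apart at 5 of the 7, against 68.3% of all probes. The median difference of those 7 was -0.10, with a range of -0.59 to -0.020, against -0.013 over all tested probes. In shGATA3 against control 1 of the 9 was called, where 10.1% of all probes were called and 4.56% as higher. It was the rise of CFTR, a call not independent of the choice of gene. In this contrast the groups were apart at 6 of the 9, against 60% of all probes. The other 7 had a median of -0.070 and a range of -0.40 to 0.18, and limma called 0, with 1 at an unadjusted p under 0.05. With shGATA3 set directly against shTCF1, limma called 0 of those 7, with 0 at an unadjusted p under 0.05, where 8.83% of all probes were called. The groups were apart at 5 of the 7, against 53.5% of all probes, and the differences ranged from -0.070 to 0.29. Both shRNA groups were set against the same control arrays, and the direct contrast shares the shTCF1 arrays.

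**Figure D2:**
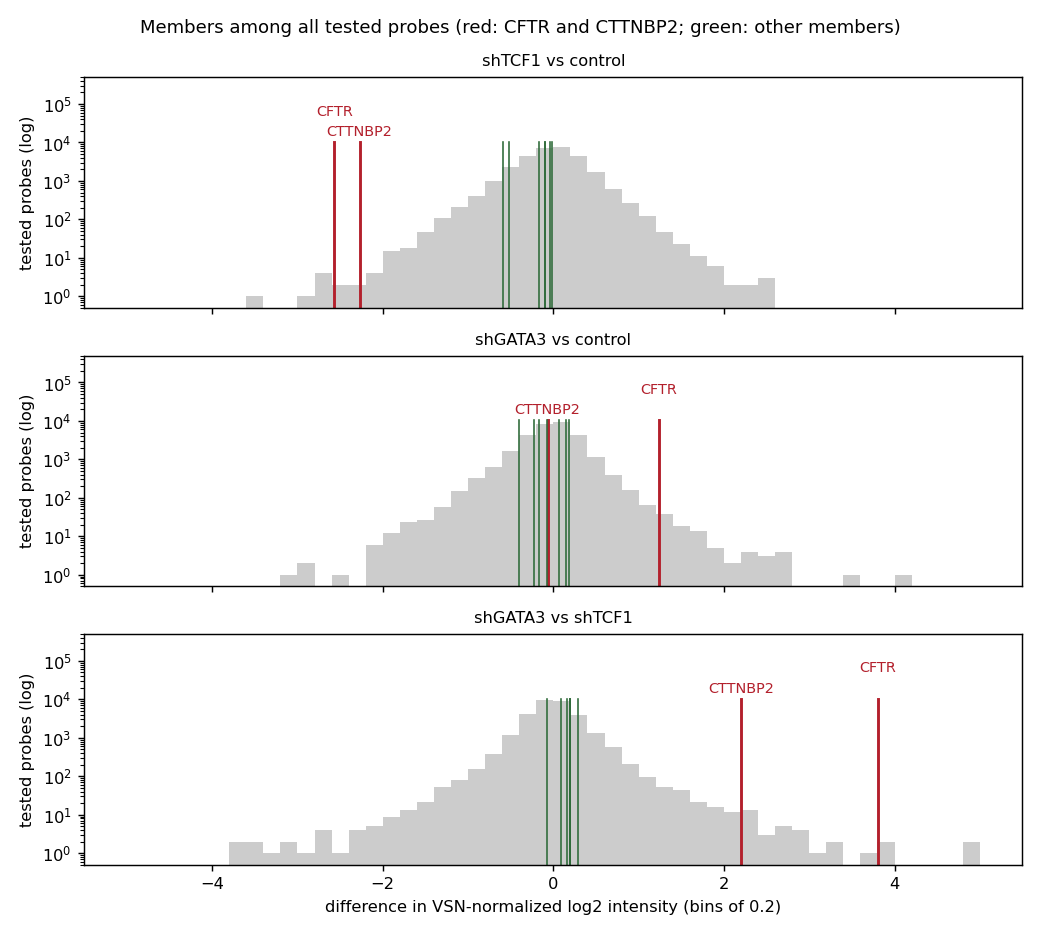
Number of tested probes, on a log axis, by difference in normalized log2 intensity in bins of 0.2 for each of the 3 contrasts, with red lines for CFTR and CTTNBP2 and green lines for the other 7 tested probes. In shTCF1 against control the red lines lie at -2.57 and -2.27, and the green lines lie between -0.59 and -0.020.

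The interval from CAV1 to ANKRD7 holds 37 RefSeq genes, 13 of them with a probe matched by accession. Besides the 10 coding genes these were the noncoding ST7-AS1, ST7-OT4 and ST7-AS2, and only ST7-AS1 passed the filter. ST7-AS1 is a transcript antisense to the start of ST7. Its probe A_32_P181297 read 7.55 and 7.74 in control, 8.61 and 8.54 in shGATA3 and 8.16 and 8.10 in shTCF1, so that both shRNA groups lay above control. It rose by 0.93 (adjusted p 0.00382 in limma) in shGATA3 and by 0.49 (adjusted p 0.0181) in shTCF1, opposite in sign to the pair in shTCF1. The call in shTCF1 was lost without control replicate 1 (0.39, adjusted p 0.117), without shTCF1 replicate 1 (0.46, adjusted p 0.0810) and without shTCF1 replicate 2 (0.52, adjusted p 0.0553), with a range of 0.0101 to 0.541 over 17 alternatives. The custom probes for other long noncoding RNAs were not placed along the chromosome here.

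Outside the interval, the nearest 15 coding genes with a probe on each side were examined. Of the 15 before CAV1, 11 were tested with 12 probes, and in shTCF1 limma called MDFIC alone, a regulator that binds MyoD family proteins, which fell by 0.44 (adjusted p 0.0278). The median over those 12 probes was -0.0038. CAV2, the caveolin next to CAV1, differed by -0.019 (adjusted p 0.900). Of the 15 after ANKRD7, 4 were tested with 5 probes. ING3, a reader of histone H3 methylation, fell by 0.63 on A_33_P3356711 (adjusted p 0.00877) and differed by 0.022 on A_23_P111811 (adjusted p 0.922). AASS, an enzyme of lysine breakdown, rose by 0.44 (adjusted p 0.0169) and CADPS2, a secretory vesicle protein, by 0.42 (adjusted p 0.0211). The fall of ING3 was not called without control replicate 2 (-0.56, adjusted p 0.0541, with 0.00274 to 0.635 over 17 alternatives). The calls of MDFIC (-0.51 to -0.38), AASS (0.39 to 0.49) and CADPS2 (0.39 to 0.45) in shTCF1 were each lost without any 1 of the control or shTCF1 arrays. In all, 5 of 18 flanking and intervening probes were called in shTCF1 (27.8%, against 21.6% of all probes), 2 lower and 3 higher, with a median of 0.017. In shGATA3 they were 3 of 18 (16.7%, against 10.1% of all probes): ST7-AS1, AASS, which rose by 0.74 (adjusted p 0.00525), and FAM3C, a secreted factor, which fell by 0.42 (adjusted p 0.0436), a call lost without any 1 array except shGATA3 replicate 1 (-0.44 to -0.34). The lowest of the flanking differences in shTCF1 was thus -0.63, against -2.57 and -2.27 in the pair.

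**Figure D3:**
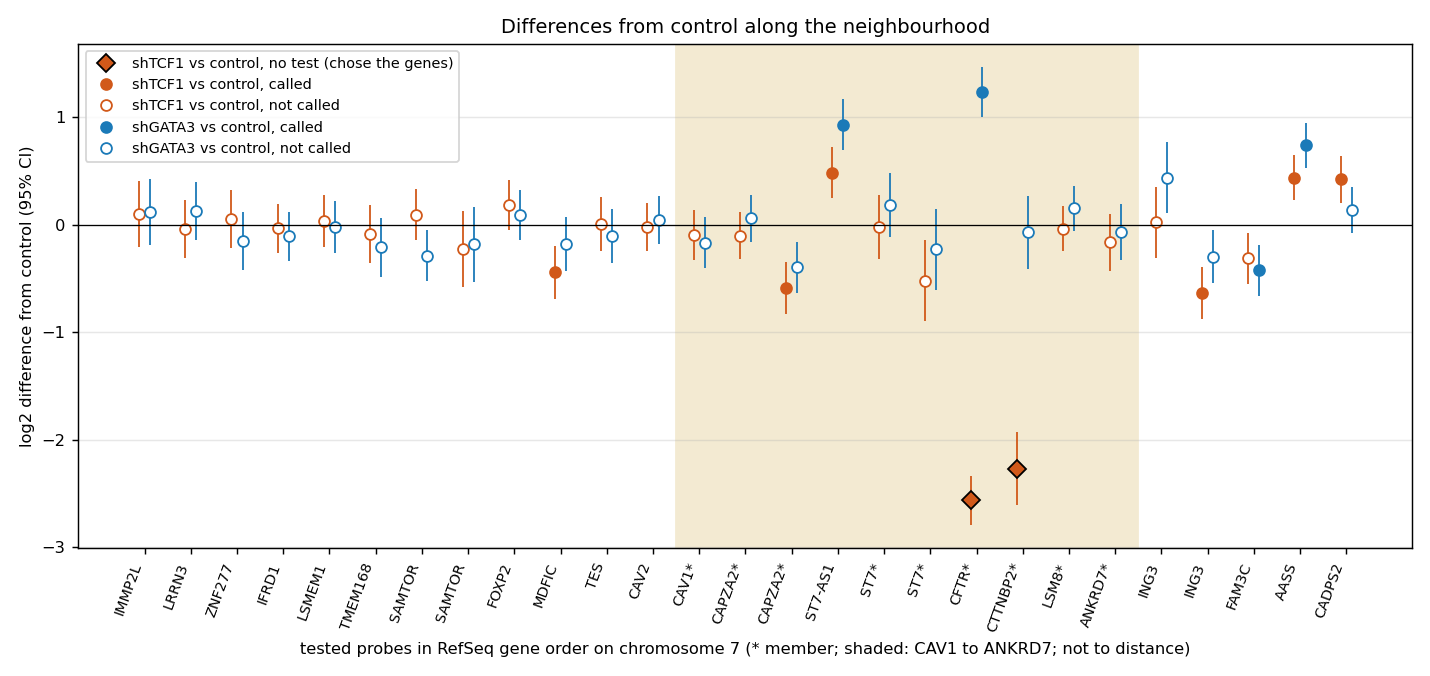
Log2 difference from control with its 95% interval for each tested probe of the neighbourhood and of the genes on both sides, in chromosome order and not to distance, for shTCF1 (orange) and shGATA3 (blue), with filled circles at an adjusted p below 0.05 in limma. Black-edged diamonds mark the shTCF1 differences of CFTR and CTTNBP2, which chose the genes and carry no test. CFTR at -2.57 and CTTNBP2 at -2.27 are far below every other orange point, the lowest of which lies at -0.63, and CFTR at 1.24 is the highest blue point.

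The known partners of the proteins encoded here were then described by lists. Among 16 tested genes of the STRIPAK complex and cortactin, 4 were called lower and 1 higher in shTCF1, with a median over 23 probes of -0.13. By probe this was 5 of 23, or 21.7%, a share near the 21.6% called over all probes. CTTN itself, the gene of cortactin, which CTTNBP2 binds, read 8.80 and 8.92 in control, 9.01 and 8.76 in shGATA3 and 7.24 and 7.35 in shTCF1. Both shTCF1 arrays were below all others, as for CTTNBP2. CTTN fell by 1.57 (SE 0.12, adjusted p 0.00127 in limma), or 2.96-fold on the normalized scale, and was 0.024 above control in shGATA3 (adjusted p 0.913). It was 1.59 higher in shGATA3 than in shTCF1 (adjusted p 0.000673). The other falls were smaller. MOB4 fell by 0.63 on A_24_P225719, STK24 by 0.54 on A_24_P73389 and PDCD10 by 0.37. The second probes of MOB4 and STK24 were not called and differed by -0.037 and -0.11, and the related kinases STK26 and STK25 were not called at 0.24 and -0.070. The striatin STRN4 rose by 0.51 in shTCF1 and by 0.43 in shGATA3. MOB4 A_24_P225719 also fell in shGATA3, by 0.40 (adjusted p 0.0419 in limma), but was called in only 4 of 17 alternatives. The second MOB4 probe differed by -0.018 there. In shGATA3 2 of 23 probes of this list were called (8.7%, against 10.1% of all probes). With 1 array left out, the falls of CTTN and MOB4 in shTCF1 were called each time. The call of PDCD10 was lost without any 1 of the control or shTCF1 arrays (-0.41 to -0.32), that of STK24 without control replicate 1 or either shTCF1 array (-0.57 to -0.41), and that of STRN4 without either control array or shTCF1 replicate 1 (0.46 to 0.55). In shGATA3 the STRN4 call was lost without any 1 of the control or shGATA3 arrays (0.39 to 0.47).

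Among 12 tested of 15 listed partners of CFTR and related chloride and bicarbonate transporters, 1 was called lower and 2 higher in shTCF1, with a median of -0.0061. The 3 calls among 12 probes are 25%, near the 21.6% over all probes. NHERF1, the scaffold that anchors CFTR at the apical membrane, rose by 0.48 (adjusted p 0.0150 in limma). RNF5, a ubiquitin ligase for misfolded CFTR, rose by 0.33 (adjusted p 0.0414). AHSA1, a co-chaperone of HSP90, fell by 0.36 (adjusted p 0.0343) and in shGATA3 by 0.53 (adjusted p 0.0171). The shTCF1 calls of RNF5 (0.28 to 0.37) and AHSA1 (-0.42 to -0.29) were lost without any 1 of the control or shTCF1 arrays, and that of NHERF1 (0.42 to 0.51) without either control array or shTCF1 replicate 2. The AHSA1 call in shGATA3 was lost without either control array or shGATA3 replicate 2 (-0.53 to -0.51). STX1A, a syntaxin that binds CFTR, was well above background on both shGATA3 arrays and 1 control array and on neither shTCF1 array, so it has only a bound there and no difference is given.

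Among 21 tested partner genes of the neighbours 7 were called in shTCF1, or 7 of 26 probes (26.9%, against 21.6% of all probes). Of 7 tested caveolar genes CAVIN3, a coat protein of caveolae, read 7.25 and 7.66 in control, 7.17 and 7.30 in shGATA3 and 6.49 and 6.21 in shTCF1, where it fell by 1.11 (adjusted p 0.00623 in limma). CAVIN1 fell by 0.53 on A_23_P394064 (adjusted p 0.0232), with a mean of 8.51 in control. Its brighter probe A_33_P3280066, at 17.06 in control, differed by 0.29 and was not called (adjusted p 0.107). The 2 probes of CAVIN1 thus had opposite signs. EHD2, an ATPase at the neck of caveolae, rose by 0.33 (adjusted p 0.0361). Of 4 tested genes around MET, the ubiquitin ligase CBL fell by 0.61 (adjusted p 0.0118). Of 4 tested actin capping genes the twinfilins TWF2 and TWF1 fell by 0.58 and 0.55. CAPZA1 and CAPZB, which like CAPZA2 encode subunits of capping protein, were not called on any probe. Of 6 tested LSM ring genes LSM4 fell by 0.40 (adjusted p 0.0493), and LSM7 fell by 0.46 in shGATA3 (adjusted p 0.0390). TWF2 and CAVIN1 A_23_P394064 also fell in shGATA3, by 0.41 and 0.49 (adjusted p 0.0403 and 0.0472). They were called in only 4 and 5 of 17 alternatives, and the brighter CAVIN1 probe differed by 0.17 there. In shGATA3 3 of 26 probes of these lists were called (11.5%, against 10.1% of all probes). The fall of CAVIN3 was called with any 1 array left out. In shTCF1 the call of TWF2 was lost without control replicate 1 (-0.56), that of TWF1 without control replicate 2 (-0.51), that of CBL without control replicate 2 or shTCF1 replicate 2 (-0.55 and -0.51), and that of CAVIN1 without either control array or shTCF1 replicate 2 (-0.58 to -0.41). EHD2 was not called without any 1 of the control or shTCF1 arrays (0.31 to 0.34), LSM4 without any 1 array except shTCF1 replicate 2 (-0.46 to -0.27), and LSM7 in shGATA3 without any 1 array except shGATA3 replicate 2 (-0.48 to -0.35).

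The genes whose levels ran most like those of the pair over the 6 arrays were sought among 134 probes of named genes that spanned at least 2 log2 units. For CFTR they were LAT (Pearson's r 0.999), RIMBP3 (0.994), CR2 (0.993), TCF7 (0.992) and RCBTB2 (0.983). TCF7, here on its probe A_33_P3250671, is the gene targeted on the shTCF1 arrays. CFTR was chosen as low on those arrays, so part of this likeness comes from the choice. LAT, an adaptor of T-cell receptor signalling on chromosome 16, had mean levels of 13.28 in control, 13.97 in shGATA3 and 11.78 in shTCF1. For CTTNBP2 they were LINC00892 (1.00), KANK4 (0.990), CD40LG (0.987), CD2 (0.980) and SPON1 (0.979), with means of 8.96, 8.92 and 5.97 for LINC00892. None of these 10 lies on chromosome 7, but how many of the 134 do was not counted, so nothing is read from this. All values share the same 6 arrays in 3 groups, so r is a description of likeness only.

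Over 17 alternatives the CFTR difference in shTCF1 ranged from -2.92 to -2.19, and that of CTTNBP2 from -3.02 to -1.41. The rise of CFTR in shGATA3 ranged from 1.15 to 1.44 and was called by limma in 15 of the 17, all but those that used the deposited matrix. In that matrix the control replicate 2 column followed its own array poorly, with a correlation over bright probes of 0.026 where the other columns had 0.166 to 0.418.

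**Figure D4:**
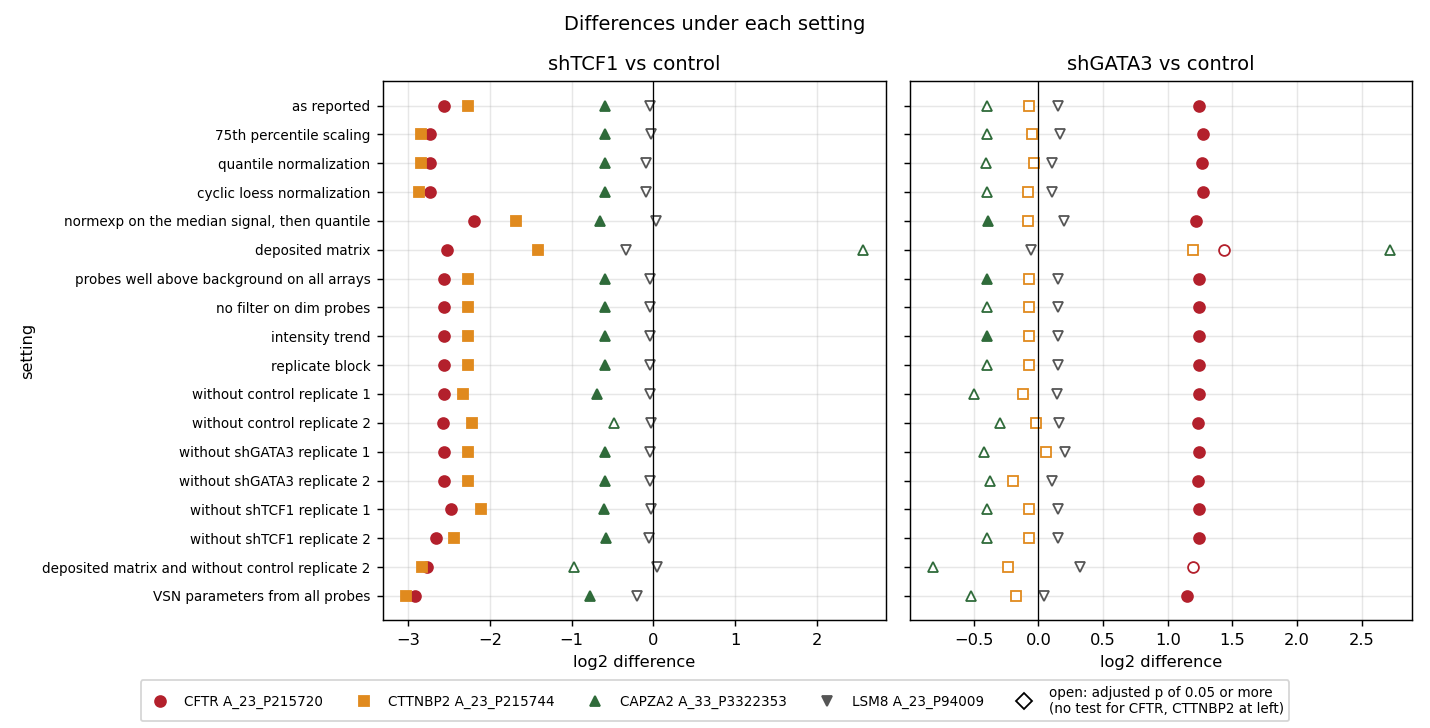
Log2 difference from control under each setting for CFTR, CTTNBP2, CAPZA2 (A_33_P3322353) and LSM8, in shTCF1 (left) and shGATA3 (right), filled where the adjusted p in limma was below 0.05, except that CFTR and CTTNBP2 at left carry no test. In shTCF1 CFTR and CTTNBP2 stay at or below -1.41 in every setting shown, and LSM8 stays between -0.34 and 0.039.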

How the data were processed

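Cy3-labelled cRNA from 100 ng of total RNA was hybridised to 1 array per sample, 6 in all, 2 in each of 3 groups taken from the sample titles. The study describes the arrays of a group as independent experiments. The 6 arrays lay on 1 slide with 1 scan time, so neither is a batch between groups. The number of arrays limits the precision.

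The intensity of each spot, per the file headers, is the processed signal of Agilent Feature Extraction 10.7.1.1 (9.1 in the submitters' processing notes), background-subtracted and not yet normalized between arrays. A second table deposited by the authors holds log2 values, described in their methods as VSN-normalized. Its medians by column were 4.94 to 5.11, its centring was not given, and 4 of its 6 columns correlated best with another array of their group, so it served only as an alternative. The scanner marks (0 or 1, deposited as a score) for spots well above background or outlying were used as filters. Every column of measured values had its sample.

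Control and outlier spots were left out, which removed 71 of 57176 probes, and spots of a probe were averaged. For normalization the VSN model was used in R 4.3.3 (an offset and scale per array, then an arsinh that equals log2 at high signal), rewritten because the package was not installed, with a trimming quantile of 0.9, 7 iterations and 5 strata. Its parameters were estimated on the 27332 probes well above background on all 6 arrays, a choice made after seeing the data, because on average 46.2% of spots on an array were not above background and a fit to all probes had no stable optimum. At low signal a VSN difference is smaller than a log2 ratio. The 31134 probes whose signal was well above background in both replicates of some group entered 1 limma 3.58.1 model of group over all 6 arrays (lmFit, then eBayes, with two-sided p) and Benjamini-Hochberg adjustment over them. Probes were called at an adjusted p below 0.05. An exact permutation test of 2 against 2 arrays cannot give a p under 0.333, so calls rest on the spread pooled over probes. The fit was also run on simulated data, with independent noise and far fewer changed probes than were called here. That run checks the code and cannot show how sound the calls on these arrays are.

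Probes were named by matching accessions to a RefSeq table of GRCh38.p14, used for names, gene order and promoters (10 of 10 genes matched), since the files name hg19. Replicate numbers did not pair the arrays: deviations of same-numbered arrays correlated at -0.044, -0.0088 and 0.076. The values of 1 marker gene are not reported here. The genes, lists and partner groups were chosen with earlier results of these data known. Named genes were every probe of the 10 members, TCF7 and GATA3, the nearest 15 coding genes with a probe on each side where limma called one, called partners and, for likeness, the 5 genes of highest r. Alternatives were other scalings, background correction, the filter, an intensity trend, a replicate block, the deposited matrix and leaving out each array in turn.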

Additional observations from a re-analysis of the deposited data

How the results depend on the processing

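Under 17 alternatives the counts of called member probes stayed within 1.5 times their values except in these cases. In shGATA3 against control 2 were called under normexp on the median signal, among probes above background on all arrays and with an intensity trend. With the deposited matrix limma called 0 of all probes in each contrast (2652, 1814 and 1642 at an unadjusted p under 0.05), and without its control replicate 2 column, an alternative added after seeing the data, 0 member probes in both contrasts with control and 2 in the direct one. There CFTR was at -2.52 in shTCF1, 1.44 in shGATA3 and 3.96 in the direct contrast, and CTTNBP2 at -1.41, 1.19 (sign turned) and 2.60. Without that column CFTR was at -2.77 and 1.20 and CTTNBP2 at -2.84. Neither setting called CFTR in shGATA3. The counts include the pair, whose values in the contrasts with shTCF1 arrays come from the choice of genes and support nothing.

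Other signs that turned under the deposited matrix were, in shTCF1, CAPZA2 A_33_P3322353 2.56, CAV1 0.20, ANKRD7 0.46, ST7 A_23_P215735 0.046, TCF7 A_33_P3250671 1.24, AHSA1 1.34, CBL 2.36, ING3 1.20, LSM4 3.65, MOB4 1.56, STK24 1.04 and RNF5 -0.041. In shGATA3 they were CAPZA2 2.71 and -0.12 on its 2 probes, CAV1 0.0033, ANKRD7 0.49, LSM8 -0.056, AHSA1 1.22 and MOB4 1.69. Without its control replicate 2 column, in shTCF1, LSM8 was 0.039 and ST7 A_23_P215735 0.057. The scanner values turned only uncalled differences. In shTCF1 ST7 A_23_P215735 was 0.048 under the 75th percentile and 0.057 under quantile, and LSM8 0.038 under normexp. In shGATA3 ANKRD7 was 0.0080 and GATA3 0.00047 under the 75th percentile, and CAPZA2 A_32_P224666 -0.025 with VSN parameters from all probes.

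Leaving out 1 array gave CFTR differences of -2.66 to -2.47 in shTCF1, 1.23 to 1.25 in shGATA3 and 3.71 to 3.90 in the direct contrast, and limma called the rise in shGATA3 each time. CTTNBP2 ran from -2.44 to -2.11, -0.20 to 0.062 and 2.04 to 2.37. Other ranges across 0 were ST7 A_23_P215735 at -0.16 to 0.12 and CAV1 at -0.19 to 0.0016 in shTCF1, and ANKRD7 at -0.16 to 0.021 and GATA3 at -0.067 to 0.038 in shGATA3. Where a group kept 1 array, that array was taken to vary like the others.

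A replicate block left the values as they were (CFTR -2.57 and CTTNBP2 -2.27 in shTCF1), and the member counts were 3, 1 and 2 as without it; over all probes calls went from 6713 to 5784 in shTCF1. Over all probes the settings mattered more. In shTCF1 calls were 2206 without control replicate 1 and 4155 with no filter, and the share called higher was 44.2%, 54.8% under the 75th percentile and 22.9% with VSN parameters from all probes, which shifted the median of all probes by -0.14. A slide or scan block was not run, with 1 slide. Dim genes are limited by signal over background: MET, WNT2 and ASZ1 could not be tested.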
